A study of Mus musculus with 2 samples.

Results

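Matrix metalloproteinases (MMPs) are zinc enzymes that cut collagens, fibronectin, proteoglycans and many proteins bound to the extracellular matrix, and tissue inhibitors of metalloproteinases (TIMPs) bind their active sites and block them. Most MMPs are secreted as inactive zymogens and are switched on by removal of a propeptide, while MMP14 sits in the cell membrane and, with TIMP2 as a bridge, activates pro-MMP2. In solid tumours these genes are known mainly as products of fibroblasts and macrophages, although the tumour cells can express some of them too. The set described here holds 10 genes of the 31053 measured, taken as a fixed list by name. No rule on measured values was used, although earlier results of these data were known when the list was chosen. It comprises 7 proteases, which are the gelatinase Mmp2, the stromelysin Mmp3, the stromelysin-like Mmp11, the macrophage elastase Mmp12, the collagenase Mmp13, the membrane-bound Mmp14 and Mmp19, and the 3 inhibitors Timp1, Timp2 and Timp3. All 10 were found in both libraries.

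The transcripts were counted by droplet single-cell RNA sequencing of small tumours grown under the skin of mice from the melanoma line B16F10. Atf4 WT/WT hosts gave 1 library (called WT) and Atf4 Δ/Δ hosts the other (called KO), each a pool of 2 tumours, and the labels give the mice an age of 11 weeks and both sexes in each pool. All hosts carried Rosa26::CreERT2, a tamoxifen-activated recombinase expressed throughout the body, and the study gave tamoxifen to both genotypes. In the KO hosts this deletes floxed Atf4, which encodes a transcription factor of the integrated stress response, in every host cell type rather than in fibroblasts alone. The injected melanoma cells kept their own Atf4 in both libraries.

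After filtering, 3861 WT and 3557 KO cells were left, with medians of 3920 and 6279 UMIs (unique molecular identifiers, 1 per captured transcript). Classes were set by marker genes, none of which was a member of the set. These gates held 193 WT and 226 KO cancer-associated fibroblasts (CAFs), 888 and 715 macrophages, 208 and 118 monocytes, 1854 and 2058 melanoma cells, and 78 and 28 endothelial cells. The 12 CAF markers summed to 50875 CPM (counts per 1e+06 UMIs of the class) in WT and 37519 in KO CAFs, against 90.6 and 133 CPM in macrophages. Atf4 levels were 261 and 39.2 CPM in WT and KO CAFs, 175 and 41.7 CPM in macrophages, and 227 and 211 CPM in melanoma cells. One label did not hold up. The WT pool is labelled as male and female, yet 0 of its 3861 cells had a UMI of a Y-linked gene, while 239 KO cells had one, and the main results on CAFs and macrophages are therefore also given for cells sorted by Xist and Y-linked transcripts. The libraries shared 10 barcodes, 1 of them among the cells kept. With 1 library per genotype no difference has a replicate check or a test. Bracketed ranges are 95% intervals that cover counting error only, not the difference between mice.

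Mmp13, Mmp12 and Mmp3 lie in this order in a stretch of chromosome 9 of GRCm38, where Mmp1b, which had 0 UMIs in the kept cells, overlaps Mmp12 on the opposite strand. Their gene models span 7272514 to 7283331 for Mmp13, 7344381 to 7369499 for Mmp12 and 7445822 to 7455975 for Mmp3, all on the plus strand. They are the 3 members whose RefSeq promoter window carried the motif TGANTCA, the site known for AP-1 factors, in the 250 bases before an annotated start. The motif was searched on both strands, where it reads the same, and 6.75% of all 32851 RefSeq windows of this length carried it. The windows of Mmp11, Mmp14, Timp1, Timp2 and Timp3 did not, nor did the first annotated start of Mmp12. The second motif searched, TGATGNAA on either strand, a form of the site known for C/EBP and ATF factors, was in 3.45% of all windows and in none of the windows of the 8 members that had one. A match is a description of these letters, and its absence says nothing of a factor. The last 100 bases before the start are printed for these genes because they were counted in different cells, as described below, with the TGANTCA match in capitals. They cover chr9:7445722-7445821 for Mmp3, chr9:7347274-7347373 for the second start of Mmp12 and chr9:7272414-7272513 for Mmp13, on the plus strand of GRCm38.p6.
Mmp3: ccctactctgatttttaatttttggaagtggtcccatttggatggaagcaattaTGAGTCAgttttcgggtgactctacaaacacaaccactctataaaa
Mmp12: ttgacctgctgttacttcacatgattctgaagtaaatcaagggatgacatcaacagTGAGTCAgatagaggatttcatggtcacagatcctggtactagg
Mmp13: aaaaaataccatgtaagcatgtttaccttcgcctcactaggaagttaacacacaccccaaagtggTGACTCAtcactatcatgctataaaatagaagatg

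The first question was which cells held each transcript. Because each transcript is counted once at its 3′ end, CPM can be set side by side between genes without a correction for length. CAFs held most UMIs of Mmp3, Mmp2 and Timp1, macrophages most of Mmp12, and melanoma cells the largest share of Mmp14 and Timp2. Melanoma cells were also the most numerous class and had the deepest cells, with medians of 11273 and 10534 UMIs. Of the UMIs in all kept cells, CAFs gave 85.4% of Mmp3 in WT and 80.1% in KO, although they were only 193 of 3861 and 226 of 3557 cells. For Mmp2 the CAF shares were 76.4% and 72.2%, and for Timp1 they were 74.6% and 73.8%. Macrophages gave 66.8% and 76.1% of Mmp12. Melanoma cells gave 67.1% and 74.5% of Mmp14, and 54.8% and 52.5% of Timp2.

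Per cell content, the ranking was different. Timp1, an inhibitor of most secreted MMPs, had the highest level of any member in any class, at 3031 CPM in WT CAFs (2908 to 3159) and 3744 CPM in KO CAFs (3618 to 3873). Endothelial cells came next at 201 and 124 CPM. Monocytes (34.1 and 61.5 CPM), melanoma cells (25.1 and 33.9 CPM) and macrophages (18.7 and 25.9 CPM) followed in this order, with intervals that overlapped between neighbours. The gene lies on the X chromosome (20870166 to 20874735).

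**Figure D1:**
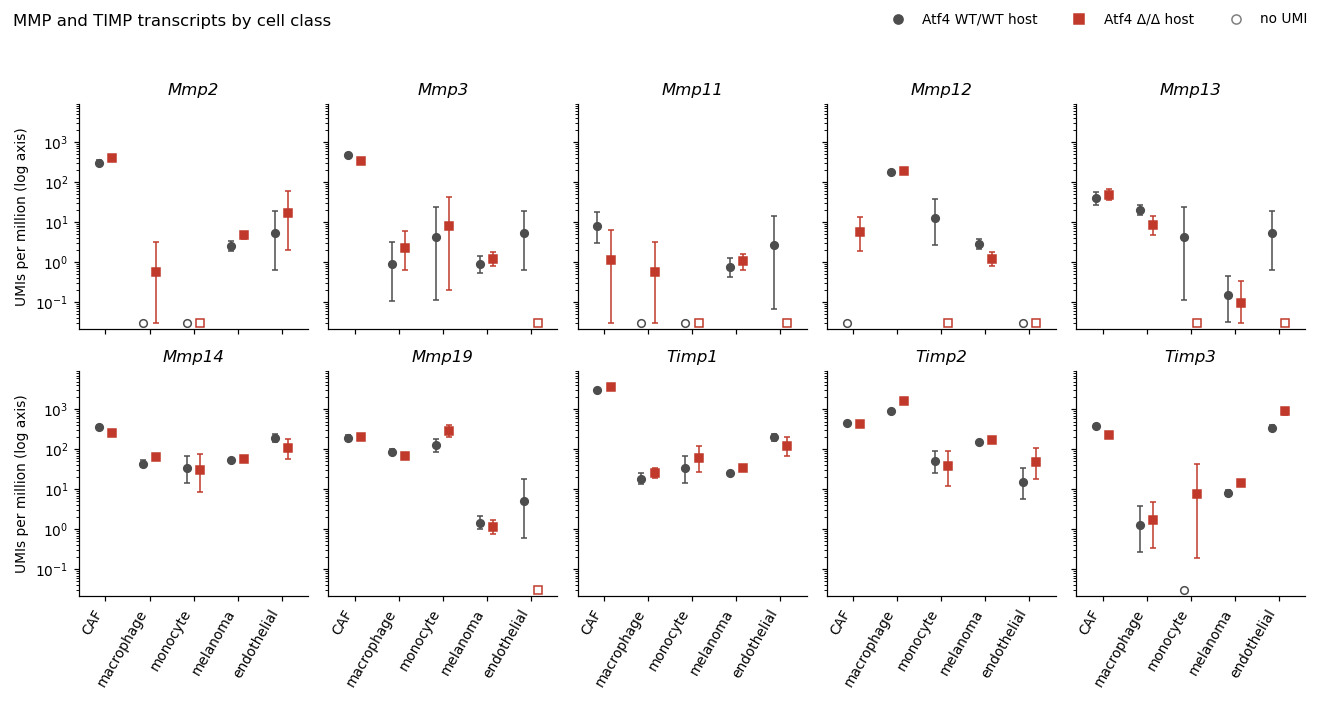
Level of each member in 5 gated classes, as CPM on a log axis, with exact Poisson 95% intervals. Circles are the WT library, squares the KO library and open symbols classes without a UMI. Mmp2, Mmp3 and Timp1 stand highest in CAFs, Mmp12 and Timp2 in macrophages.

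Mmp2, which degrades gelatin and basement-membrane collagen, had 226 UMIs in 110 of 193 WT CAFs and 343 UMIs in 149 of 226 KO CAFs. That is 302 CPM (264 to 344) and 385 CPM (345 to 428). Outside CAFs it was at 5.15 and 16.6 CPM in endothelial cells and 2.45 and 4.67 CPM in melanoma cells, and the endothelial values rest on 2 UMIs each. Macrophages had 0 and 1 UMIs of Mmp2. CAFs were the highest class in both libraries, and no other class came within its interval.

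Mmp3, which cuts many matrix proteins and other pro-MMPs, was at 462 CPM in WT CAFs (415 to 514) and 339 CPM in KO CAFs (302 to 379). It was the highest of the 7 MMPs in WT CAFs and second to Mmp2 in KO CAFs. The intervals of Mmp3 and Mmp2 did not overlap in WT but did in KO. Its UMIs came from few cells. In WT 72 of 193 CAFs had at least 1 UMI and the 5 cells with most held 28.9% of them, and in KO 69 of 226 CAFs had one and the top 5 held 33.1%. The other 4 classes had at most 26 UMIs of Mmp3 in a library, at 7.68 CPM or lower.

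Mmp13, a collagenase of fibrillar collagen, had very uneven counts in CAFs. The 30 WT UMIs came from 6 cells, 19 of them from a single cell, and all 43 KO UMIs came from 1 cell. The class levels of 40.1 CPM (27.1 to 57.2) and 48.2 CPM (34.9 to 65.0) therefore describe a handful of cells. In macrophages its 46 WT UMIs were spread over 31 cells and its 15 KO UMIs over 9. The macrophage intervals (14.7 to 26.7 CPM in WT and 4.73 to 13.9 CPM in KO) lay below those of CAFs in both libraries.

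Mmp12, an elastase named after macrophages, was counted mainly in that class. It had 415 UMIs in 104 of 888 WT macrophages and 337 UMIs in 79 of 715 KO macrophages, or 181 CPM (164 to 199) and 190 CPM (170 to 211). No UMI was seen in 193 WT CAFs, and 5 were seen in 4 of 226 KO CAFs. Monocytes had 3 and 0 UMIs. At 2000 UMIs per cell 13.2% of 546 WT macrophages (10.5 to 16.3) and 8.25% of 424 KO macrophages (5.82 to 11.3) had a UMI, with 342 and 291 shallower cells left out. Without this thinning the shares were 11.7% and 11.0%. At its level a cell of this depth can be without a UMI by counting alone, so these shares do not count the cells that express Mmp12. Its UMIs were also concentrated in a minority of cells, with 415 in 104 WT macrophages and 337 in 79 KO macrophages. The 5 cells with most held 21.0% and 29.1% of its UMIs.

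Mmp14, the membrane-bound activator of pro-MMP2, was found in CAFs, endothelial cells, melanoma cells, macrophages and monocytes of both libraries. CAFs were highest with 278 UMIs in WT and 230 in KO, at 372 CPM (329 to 418) and 258 CPM (226 to 294). Endothelial cells followed at 196 and 108 CPM. Melanoma cells stood at 53.3 and 56.2 CPM, macrophages at 44.4 and 65.9 CPM and monocytes at 34.1 and 30.7 CPM. Melanoma cells and macrophages did not differ beyond their intervals in KO or in WT. Of melanoma cells 41.2% in WT and 40.6% in KO had an Mmp14 UMI, at median depths of 11273 and 10534 UMIs.

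Mmp19, a widely expressed MMP of stromal and myeloid cells, was at 192 CPM in WT CAFs (162 to 227) and 211 CPM in KO CAFs (182 to 243). Monocytes had 128 and 292 CPM, and their intervals overlapped those of CAFs in both libraries. Macrophages were lower at 87.5 and 70.4 CPM, and melanoma cells were at 1.47 and 1.16 CPM. Mmp11, which is known from tumour stroma, had only 22 UMIs in WT and 25 in KO over all kept cells. Of these 15 and 22 lay in melanoma cells and 6 and 1 in CAFs. Its neighbour on the other strand, Chchd10, overlaps the gene model of Mmp11 and had 39872 UMIs in the kept cells. The strand setting of the counting step is not given in the sources used here, so Mmp11 counts are uncertain.

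Timp2, the inhibitor that also bridges MMP14 and pro-MMP2, had a different order from Timp1 over the 5 classes. Macrophages were highest at 903 CPM in WT (865 to 943) and 1657 CPM in KO (1598 to 1718). CAFs followed at 446 CPM (400 to 497) and 424 CPM (382 to 469), then melanoma cells at 157 and 177 CPM. Monocytes had only 51.1 and 38.4 CPM, below macrophages in both libraries. Timp3, an inhibitor that stays bound to matrix, had only 3 UMIs in the macrophages of each library. It stood at 396 CPM in WT CAFs (352 to 443) and 342 CPM in WT endothelial cells (287 to 406), which overlapped. In KO the endothelial level of 903 CPM (742 to 1090) was above the CAF level of 227 CPM (196 to 260).

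Free RNA sets a lower limit to these levels. Dct encodes a pigment enzyme of melanocytes, yet 41.9% of WT and 39.4% of KO macrophages carried its UMIs at 2000 UMIs per cell. The free share was put at 4.94% to 7.41% of the UMIs of CAFs, macrophages and melanoma cells. It was read from melanoma markers in CAFs and macrophages, and from C1qa, C1qb, C1qc and Pf4 in melanoma cells. Free RNA was given the summed profile of all barcodes of the library, cells included, and not that of empty droplets. The predictions are therefore rough. For macrophages this predicts 1.59 and 1.93 UMIs of Mmp2, 1.79 and 1.47 of Mmp3 and 3.36 and 2.97 of Timp3 in WT and KO, where 0 to 4 UMIs were counted. For melanoma cells it predicts 14.5 and 16.1 UMIs of Mmp3 against 18 and 26 counted, and 18.3 and 19.7 of Mmp19 against 30 and 25 counted. Mmp3 in WT and Mmp19 in KO lay within counting error of the prediction, while Mmp3 in KO and Mmp19 in WT lay above it. Melanoma cells had 1086 and 1214 UMIs of Mmp14 where 80.9 and 88.6 are predicted, and 3197 and 3835 of Timp2 where 272 and 365 are. Macrophages had 2074 and 2944 UMIs of Timp2 against 33.6 and 33.5, and 415 and 337 of Mmp12 against 3.61 and 1.77.

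The second question was how the members varied among CAFs. Subtypes were gated on markers that hold no member, and the gates held in WT and KO 33 and 45 adventitial-type CAFs (Pi16, Clec3b, Dpp4), 80 and 70 activated CAFs (Lrrc15, Tnc, Postn), 7 and 44 hypoxic CAFs, 31 and 16 cycling CAFs and 4 and 9 vascular CAFs, while 38 and 42 CAFs had no subtype. Mmp2 was highest in adventitial-type CAFs, with levels of 670 CPM (508 to 868) and 811 CPM (661 to 984). Activated CAFs had 293 CPM (237 to 358) and 336 CPM (276 to 406), and cycling CAFs 175 and 207 CPM. When subtypes were taken from graph clusters, adventitial-type CAFs again held 719 CPM of Mmp2 in WT (534 to 948) and 768 in KO (635 to 921).

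Timp1 was low in adventitial-type CAFs. They had 705 CPM (538 to 908) and 1844 CPM (1615 to 2097), and only vascular CAFs, at 1262 CPM (721 to 2050) and 1708 CPM (1300 to 2203), overlapped them. Hypoxic CAFs had 4383 CPM (3566 to 5331) in 7 WT cells and 3269 CPM (2995 to 3562) in KO, and activated CAFs 3458 CPM (3258 to 3666) and 4414 CPM (4186 to 4651). Adventitial-type CAFs were also the CAF subtype with fewest TIMP transcripts per MMP transcript. They had 0.902 TIMP UMIs per MMP UMI in WT (0.717 to 1.13) and 1.43 in KO (1.20 to 1.70). Activated CAFs had 3.02 (2.72 to 3.36) and 3.95 (3.54 to 4.42).

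**Figure D2:**
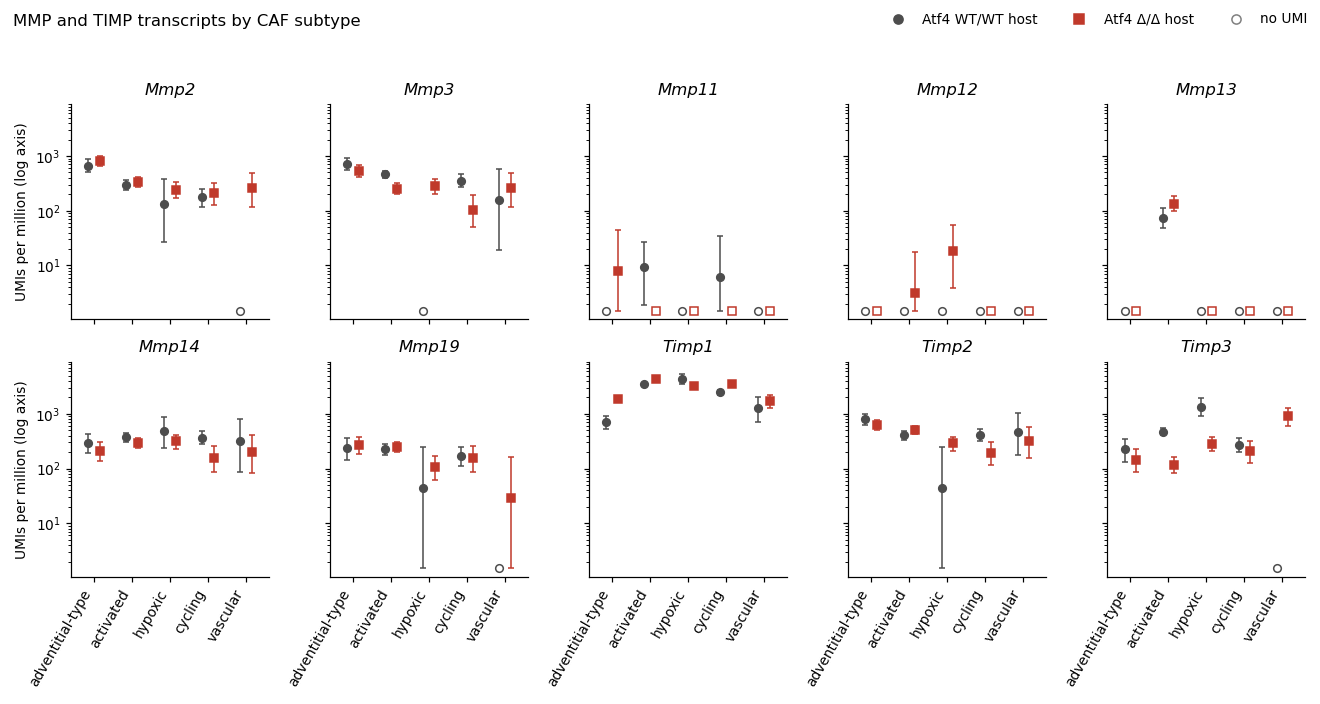
Level of each member in 5 CAF subtypes, as CPM of the subtype on a log axis, with exact Poisson 95% intervals. Circles are WT, squares KO and open symbols no UMI. Mmp2 is highest and Timp1 low in adventitial-type CAFs. Timp3 is lower in KO than in WT in activated and hypoxic CAFs, and was seen only in KO in vascular CAFs.

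Mmp3 did not mark a single subtype. Its levels were 717 and 533 CPM in WT and KO adventitial-type CAFs, 460 and 255 CPM in activated CAFs, 356 and 103 CPM in cycling CAFs and 537 and 575 CPM in CAFs without a subtype. In the graph cluster of adventitial-type CAFs Mmp3 was at 618 and 932 CPM, so its order between the libraries there depends on the gate. Mmp14 was more even, between 294 and 482 CPM over the WT subtypes and between 155 and 313 CPM over the KO subtypes. The single KO cell with Mmp13 was an activated CAF by this gate but a vascular CAF by the study's own marker lists, and in WT 24 of its 30 UMIs were in 3 activated CAFs.

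Whether MMPs and TIMPs were counted in the same CAFs was read after thinning to 2000 UMIs, which left 163 WT and 187 KO CAFs. Mmp2 and Timp2 were seen together in 33 WT CAFs and 62 KO CAFs. In KO 67.4% of the CAFs with an Mmp2 UMI had a Timp2 UMI against 34.7% of the others. In WT these shares were 53.2% and 49.5%. The KO subtypes differed, with 82.1% and 33.3% in adventitial-type CAFs and 64.0% and 35.3% in activated CAFs. Hypoxic CAFs had 36.4% and 46.2%, and cycling CAFs 20% in both. Vascular CAFs were only 7 cells. The part of subtype makeup in the pooled shares was not tested. Of Mmp3-positive CAFs 81.8% in WT and 85.4% in KO also had a Timp1 UMI, against 89.8% and 91.1% of Mmp3-negative CAFs. These are descriptions of cells within 2 pools, without a test.

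The third question was what differed between host genotypes. A member was counted as past the threshold if it had at least 20 UMIs over both libraries, differed 2-fold or more and had an interval that left out equality. In CAFs 0 of the 8 members with enough UMIs passed, and over all 7254 genes measured this deeply 5.18% were lower and 3.83% higher in KO by the same rule. The median log2 KO/WT ratio was 0.03 for these members and -0.05 for all genes. Differences within CAFs were smaller than 2-fold and went both ways.

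**Figure D3:**
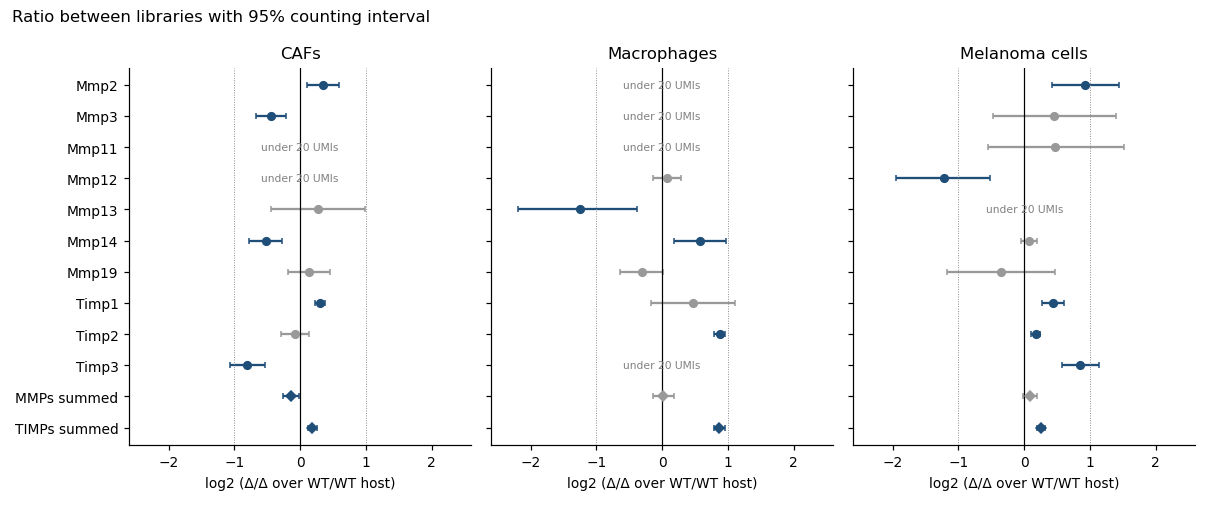
Log2 ratio of KO over WT for each member and for the summed MMPs and TIMPs in CAFs, macrophages and melanoma cells, with exact conditional binomial 95% intervals. Blue marks intervals off 0, grey the others, and dotted lines stand at 2-fold. Timp2 is higher in KO macrophages, and Timp3 is lower in KO CAFs and higher in KO melanoma cells.

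Among the proteases, Mmp2 was higher in KO CAFs with a log2 ratio of 0.35 (0.10 to 0.60). Mmp3 was lower at -0.45 (-0.68 to -0.22) and Mmp14 was lower at -0.53 (-0.78 to -0.27). Mmp19 at 0.13 (-0.19 to 0.45) and Mmp13 at 0.27 (-0.44 to 0.99) had intervals that held 0. Without the cell with most UMIs in each library the Mmp13 ratio was -2.13, so it rests on 1 cell per library. Mmp11 with 6 and 1 UMIs and Mmp12 with 0 and 5 UMIs in WT and KO CAFs were too few to compare. The 7 MMPs summed to 1030 UMIs in WT and 1112 in KO CAFs, or 1377 and 1247 CPM, a log2 ratio of -0.14 (-0.27 to -0.02).

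Among the inhibitors, Timp1 was higher in KO CAFs at 0.30 (0.23 to 0.38) and Timp2 was at -0.07 (-0.29 to 0.14). Timp3 had the lowest ratio of the 8 members at -0.80 (-1.07 to -0.54), with 296 UMIs in 80 WT CAFs and 202 UMIs in 60 KO CAFs. With the same subtype makeup in both libraries, each subtype weighted by its share of all CAFs, it was -1.13. That value has no interval. Its WT side rests in part on 31 UMIs in 7 hypoxic CAFs and on 4 vascular CAFs with 0 UMIs. In activated CAFs 154 UMIs in 33 of 80 WT cells stood against 37 UMIs in 11 of 70 KO cells, a log2 ratio of -2.03 with intervals of 403 to 556 CPM in WT and 81.9 to 160 CPM in KO. That ratio was -0.56 (-1.32 to 0.12) for KO cells with Xist, which held 20 of the 37 UMIs, and -3.36 (-4.83 to -2.20) for KO cells with a Y-linked UMI, both against WT cells with Xist. No graph cluster of CAFs was named activated, and both unnamed clusters, with activated CAF markers as their second score, were uneven between the libraries (74 WT and 22 KO cells in one, 7 and 79 in the other). In gated hypoxic CAFs the Timp3 ratio was -2.27 (-2.96 to -1.56), from 7 WT cells, and -1.33 and -2.73 in the Xist and Y-linked sets. The gap was smaller in the graph cluster of hypoxic CAFs. There Timp3 was at 707 CPM (525 to 932) in 18 WT cells and 335 CPM (259 to 426) in 52 KO cells. In CAFs without a subtype Timp3 was at 334 and 326 CPM. Vascular CAFs went the other way, with 0 UMIs in 4 WT cells and 31 UMIs in 9 KO cells. By the study's marker lists they were at 471 CPM (342 to 632) in 31 WT cells and 887 CPM (699 to 1111) in 23 KO cells. The graph cluster of vascular CAFs had 313 and 478 CPM, with intervals that overlapped. The endothelial markers summed to 56.1 and 61.7 CPM in WT and KO CAFs, with Cldn5 at 0 in both, and the 9 activated CAF markers to 5069 and 2808 CPM. The part of the latter in the Timp3 result was not tested. Col1a1, a collagen gene, was at 12162 and 8312 CPM in the same cells.

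The inhibitors summed to 2898 and 3918 UMIs in CAFs, a log2 ratio of 0.18 (0.11 to 0.25), most of it Timp1. Their number per MMP UMI was 2.81 in WT (2.62 to 3.02) and 3.52 in KO (3.30 to 3.77). Among cells with Xist the order of the libraries turned, with 2.87 in WT (2.65 to 3.11) and 2.28 in KO (2.02 to 2.57). KO cells with a Y-linked UMI had 4.90 (4.25 to 5.68). Hypoxic CAFs also had the opposite order, at 8.80 in 7 WT cells (5.15 to 16.2) and 3.99 in 44 KO cells (3.34 to 4.79). The other gated subtypes were higher in KO, vascular CAFs with intervals that overlapped. Adventitial-type CAFs had the highest Timp1 ratio of the subtypes at 1.39 (0.97 to 1.82), with 60 UMIs in WT and 232 in KO, and it was 1.23 in the graph cluster of this type. Cycling CAFs had lower Mmp3 at -1.79 (-2.92 to -0.80), lower Mmp14 at -1.25 (-2.18 to -0.42) and lower Timp2 at -1.05 (-1.87 to -0.29), from 31 WT and 16 KO cells. In the graph cluster of cycling CAFs these ratios were -0.17, -0.66 and -0.67. Among cycling CAFs with Xist, of which KO had 2, Mmp3 turned to 1.17 (-0.05 to 2.22).

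**Figure D4:**
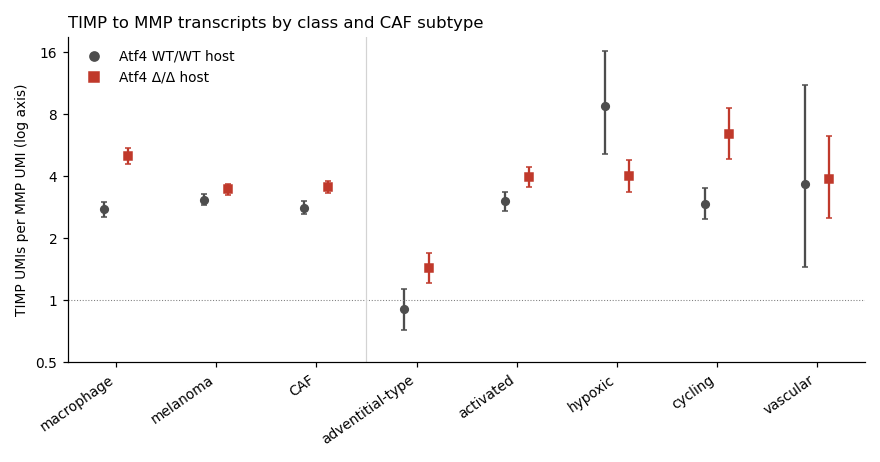
TIMP UMIs per MMP UMI, on a log axis, in macrophages, melanoma cells, all CAFs and the CAF subtypes to the right of the line, with 95% intervals from the exact binomial share. Circles are WT and squares KO. Adventitial-type CAFs are lowest at 0.902 and 1.43, and macrophages stand at 2.77 and 4.99.

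The Mmp3 ratio in CAFs depended on which KO cells were compared. Sorting CAFs by sex-linked transcripts gave 154 WT and 58 KO cells with Xist and without a Y-linked UMI, and 50 KO cells with a Y-linked UMI and without Xist. Since each pool held 2 tumours, host sex and tumour cannot be told apart here. Mmp3 was at 448 CPM in the WT cells with Xist (282 UMIs, 57 cells with a UMI), at 997 CPM in the KO cells with Xist (194 UMIs, 30 cells) and at 90.2 CPM in the KO cells with Y-linked UMIs (24 UMIs, 8 cells). The log2 ratio against WT was 1.16 (0.88 to 1.42) for the former and -2.31 (-2.98 to -1.71) for the latter. Within the KO library alone the Y-linked set was lower than the Xist set by -3.47 on the log2 scale (-4.14 to -2.85), a larger gap than that between the genotypes. The pooled ratio of -0.45 covers both sets and 118 KO CAFs with neither transcript.

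The gap was present within a single subtype. In activated CAFs Mmp3 was at 911 CPM in 15 KO cells with Xist and at 67.1 CPM in 19 KO cells with Y-linked UMIs, against 453 CPM in 60 WT cells with Xist. Of the 15 KO cells with Xist, 1 held 25 Mmp3 UMIs and the others at most 7. The level was not recomputed without that cell. The summed MMPs in CAFs followed Mmp3, with a log2 ratio against WT of 0.57 (0.40 to 0.75) in the Xist set and -0.65 (-0.87 to -0.44) in the Y-linked set. Adventitial-type CAFs were 19 of the 58 Xist cells and 5 of the 50 Y-linked cells of KO.

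**Figure D5:**
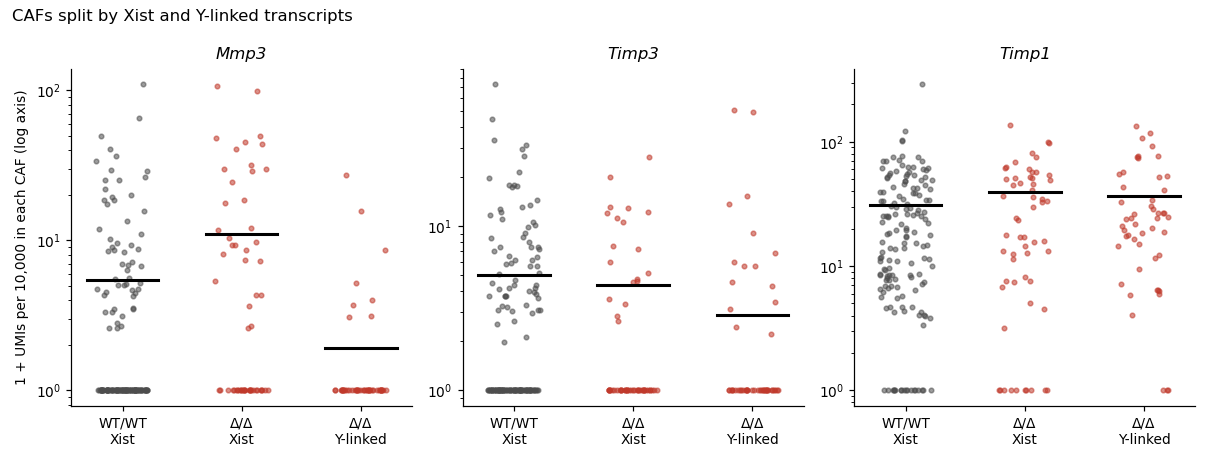
Mmp3, Timp3 and Timp1 in single CAFs, as 1 plus UMIs per 10000 UMIs of the cell on a log axis, for 154 WT cells with Xist, 58 KO cells with Xist and 50 KO cells with Y-linked UMIs. Each point is a cell and the bar is the summed level of the set, placed on the same scale. Mmp3 is high in part of the KO Xist cells and near its floor in the KO Y-linked cells, while Timp1 is alike in both.

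Timp1 was steadier, at 0.34 (0.22 to 0.46) in the Xist set and 0.25 (0.13 to 0.36) in the Y-linked set. Timp2 was at -0.13 and -0.06 with intervals that held 0. Timp3 was at -0.24 (-0.65 to 0.16) in the Xist set and -1.09 (-1.56 to -0.65) in the Y-linked set, and Mmp14 at -0.14 (-0.56 to 0.27) and -0.89 (-1.35 to -0.45). For both genes the interval of the Xist set held 0. Mmp2 was at 0.59 (0.22 to 0.95) and 0.01 (-0.37 to 0.38).

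In macrophages Timp2 carried the difference. It had 2074 UMIs in 584 of 888 WT cells and 2944 UMIs in 495 of 715 KO cells, with a log2 ratio of 0.88 (0.79 to 0.96), under the 2-fold threshold. At 2000 UMIs per cell 76.9% of WT (73.2 to 80.4) and 86.3% of KO macrophages (82.7 to 89.4) had a UMI. No single cell held more than 36 UMIs, and the top 5 cells held 4.24% and 4.86% of them. The ratio was 0.96 (0.80 to 1.11) for 77 KO macrophages with Xist and 0.98 (0.84 to 1.11) for 110 KO macrophages with Y-linked UMIs, both against 641 WT macrophages with Xist. Within KO the 2 sets stood at 1841 and 1868 CPM. The Timp2 ratio was thus close in both parts of the KO pool, and the ratio between them was 0.02 (-0.16 to 0.20). Macrophage markers summed to 23275 CPM in WT and 27888 CPM in KO, and their part in the result was not tested. The graph clusters named macrophage were uneven between the libraries, with 540 WT and 296 KO cells, 138 and 237, and 114 and 20. Timp2 was not recomputed at an equal makeup of these clusters.

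Of the 6 members with enough UMIs in macrophages 1 was past 2-fold and lower in KO and 0 were higher, where 2.05% and 2.37% of 8927 genes were lower and higher. The one was Mmp13 at -1.25 (-2.19 to -0.38), from 46 and 15 UMIs. It was -0.37 when each cell had equal weight. Mmp14 was at 0.57 (0.17 to 0.97) over all macrophages but at -0.84 (-2.51 to 0.45) in the Xist set and 0.32 (-0.56 to 1.12) in the Y-linked set, and Mmp19 at -0.31 (-0.65 to 0.01) was not set apart. Mmp12 was at 0.07 (-0.14 to 0.28) over all macrophages, yet lower than WT in both sorted sets, at -1.31 (-2.10 to -0.61) in the Xist set and -1.10 (-1.71 to -0.54) in the Y-linked set. These sets left out the 525 KO macrophages that had neither transcript, and they held Mmp12 UMIs in only 4 and 7 cells. The MMPs summed to 766 and 600 UMIs, at 0.02 (-0.14 to 0.17), but at -1.06 (-1.59 to -0.57) and -0.77 (-1.16 to -0.39) in the Xist and Y-linked sets, and the TIMPs to 2120 and 2993 UMIs, at 0.87 (0.79 to 0.95). TIMP UMIs per MMP UMI were 2.77 in WT (2.55 to 3.01) and 4.99 in KO (4.57 to 5.45). In the sorted sets they were 2.95 in WT with Xist (2.68 to 3.24), 11.9 in KO with Xist (8.49 to 17.3) and 9.90 in KO with Y-linked UMIs (7.64 to 13.0). The KO sets held only 36 and 63 of the 600 MMP UMIs of KO macrophages, so their ratios do not stand for the whole class.

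Melanoma cells carried an intact Atf4 in both hosts. Of 9 members tested there 1 was past 2-fold and lower in KO, against 1.42% of 12411 genes, and 0 were higher, against 3.05%. It was Mmp12 at -1.22 (-1.95 to -0.52), with 57 and 26 UMIs where free RNA predicts 29.3 and 19.3. The members with many UMIs differed little, Mmp14 by 0.08 (-0.04 to 0.20) and Timp2 by 0.18 (0.11 to 0.25). Timp1 was higher in tumours of KO hosts at 0.43 (0.27 to 0.60), Timp3 at 0.85 (0.58 to 1.13) with 166 and 318 UMIs, and Mmp2 at 0.93 (0.43 to 1.45) with 50 and 101 UMIs. The Timp3 UMIs were spread over 144 and 221 melanoma cells. In the melanoma gate the 12 CAF markers summed to 129 and 107 CPM, while the adventitial-type markers were at 4.27 and 8.79 CPM, the vascular CAF markers at 38.5 and 48.8 CPM and the hypoxic markers at 624 and 942 CPM. Their part in these ratios was not tested. Summed TIMPs were at 0.25 (0.19 to 0.31) and summed MMPs at 0.08 (-0.03 to 0.20).

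In the smaller classes, endothelial Timp3 had a log2 ratio of 1.40 (1.02 to 1.78) from 133 UMIs in 78 WT cells and 109 in 28 KO cells. The CAF markers were at 2886 and 1285 CPM and the vascular CAF markers at 1084 and 1492 CPM in these cells, and their part in the result was not tested. Mmp19 in monocytes had 30 and 38 UMIs and a ratio of 1.19 (0.46 to 1.93).

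The wider pathway was read from lists of related genes. In CAFs 3 of 17 genes in a list of other MMPs with Timp4 had enough UMIs, and 1 of them was higher in KO. This was Mmp10, a second stromelysin, with 2 UMIs in WT and 21 in KO, a log2 ratio of 3.14 (1.11 to 6.28). Of the 13 ADAMTS proteases, which cut proteoglycans and procollagens, 9 were tested and 2 were lower in KO CAFs. These were Adamts12 at -1.66 (-2.48 to -0.89) and Adamts4, an aggrecanase, at -1.06 (-1.66 to -0.48). None of the 6 tested of 7 ADAM sheddases and none of the 10 tested of 12 genes of activation, inhibition and clearance passed. By the same rule 5.18% of all 7254 genes tested in CAFs were lower and 3.83% higher in KO. In macrophages 0 genes of these lists passed, where 2.05% of 8927 genes were lower and 2.37% higher. In melanoma cells 1 was higher, the protease gene Ctsk at 1.01 (0.62 to 1.42), and 1 lower, Adamts2 at -1.82 (-3.43 to -0.45), and both were named after their values were seen. Ctsk was 1 of 9 genes tested in its list and Adamts2 1 of 8. Over all 12411 genes tested in melanoma cells 3.05% were higher and 1.42% lower.

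The genes most like each member over the 20 combinations of class or CAF subtype with library were found by Pearson correlation of log2(CPM + 10) among 9977 genes, with no test, since subtypes are part of the CAF class and all points share 2 libraries. Mmp3 was closest to Pdgfra (0.972), Mmp23 and Mfap2, and Mmp2 to Bicc1 (0.971), Medag and Csf1. Timp1 followed Col5a2 (0.970), Col1a1 and Prrx1, and Mmp14 followed Bgn (0.956), Col5a1 and Col6a3. Mmp12 was closest to Fcrls (0.955), Cd5l and Marco, and Mmp19 to Lsp1 (0.917), Irs2 and Emilin2. Timp3 was close to Arhgap29 (0.940) and Adamts4 (0.910). Timp2 had no close match, with Ccl8 at 0.861 and Sgpp1 at 0.772. Mmp11 and Mmp13 had too few UMIs for this measure.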

How the data were processed

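Raw UMI counts per gene and cell were used as deposited. Per the labels and the study's methods, the authors made these counts with Cell Ranger 3.1.0 on GRCm38 and analysed them with Seurat 3.2.1. The kit version differs between labels and methods, and the strand setting is not given in the sources used here. The filter passed cells that had 200 to 5000 genes and no more than 7.5% of UMIs from mitochondria, giving median depths of 3920 (WT) and 6279 (KO) UMIs.

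Each cell was scored for each class as the mean over markers of ln(1 + UMIs per 10000), scaled by the 90th percentile of positive cells. It took the top class if 3 markers were detected and the score led by 0.1, and a CAF took a subtype with 2 markers and a lead of 0.05. This rule was set after marker levels were seen but before those of the members. No member was in any gate. Doublets were not removed in the main setting. Counts were summed per class and library and divided by the class total (CPM). Ratios use exact conditional binomial intervals, shares Clopper-Pearson and sums Poisson intervals, all at 95%. In a ratio a count of 0 was set to 3, which makes it a bound, and no ratio was given where both counts were 3 or lower. No p-value was computed. The members and lists were chosen with earlier results of these data known. Named genes were the members, listed pathway genes past 2-fold in CAFs, and the 3 nearest patterns of each member with at least 200 UMIs, of which 1 is not reported here. The ratio step was tested on simulated counts. Gene models came from GENCODE vM21 and promoter windows from RefSeq (8 of 10 members matched). Python 3.11.15, numpy 2.4.6, scipy 1.17.1, scanpy 1.11.5 and edgeR 4.0.16 (for TMM factors) were used.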

Additional observations from a re-analysis of the deposited data

Results flagged for a closer look

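Some members had KO/WT ratios of opposite sign in different classes, each with an interval off 0. None of these differences was tested, since each genotype had 1 library. Mmp14 had log2 ratios of -0.53 in CAFs and -0.86 in endothelial cells and of 0.57 in macrophages. The macrophage value was -0.84 in the cells with Xist alone, from 71 WT and 5 KO UMIs. Timp3 was at -0.80 in CAFs, 0.85 in melanoma cells and 1.40 in endothelial cells. The summed MMPs were at -0.14 in CAFs, -0.82 in endothelial cells and 0.85 in monocytes, where the counts were 85 and 15 UMIs in endothelial cells and 43 and 43 in monocytes.

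Within CAFs, ratios also had opposite signs in the KO cells sorted by sex-linked transcripts, again without a test. Mmp3 was at 1.16 in cells with Xist and -2.31 in KO cells with Y-linked UMIs, both against WT cells with Xist. The summed MMPs were at 0.57 and -0.65. Timp1 in the same cells was at 0.34 and 0.25.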

How the results depend on the processing

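No paired analysis was possible because there was a single library of either genotype, and for the same reason no replicate could be left out. The 8 main results, which are the summed MMPs and TIMPs in 3 classes and the counts of members past 2-fold in CAFs in each direction, were recomputed in 90 settings, of which 75 stayed within the main interval or count, 14 moved and 1 reversed. The summed MMPs in CAFs (main log2 ratio -0.14) reversed to 0.57 in cells with Xist and without Y-linked UMIs, were -0.65 with KO cells that had a Y-linked UMI (an alternative chosen after seeing the data), and were -0.0094 with equal weight per cell. The summed TIMPs in CAFs (0.18) were 0.28 with graph clusters. The summed MMPs in macrophages (0.02) were -0.15 with a 15% mitochondrial limit, 0.24 with equal weight per cell, -0.33 with graph clusters, -1.06 in the Xist set and -0.77 in the Y-linked set. The summed TIMPs in macrophages (0.87) were 0.78, 0.97, 0.96 and 0.98 with equal weight, graph clusters, the Xist set and the Y-linked set. Members past 2-fold in CAFs became 1 higher in the Xist set and 2 lower in the Y-linked set. Both melanoma sums stayed within their intervals in the settings that apply to them. Of the 53 ratios of single members, 6 settings of 597 reversed a ratio whose interval was off 0 and 59 moved it. The reversed ones were Mmp3 in CAFs (1.16), activated CAFs (1.01) and cycling CAFs (1.17), Timp2 in activated CAFs (-0.13) and Mmp14 in macrophages (-0.84), each in the Xist set, and Timp1 in cycling CAFs (-0.37) in the Y-linked set. The cause was not tested, and 1 KO cell with Xist held 25 of the Mmp3 UMIs behind the value in activated CAFs. Removal of the 114 WT and 50 KO cells that Scrublet called doublets, TMM factors and free RNA subtraction left the sums in their intervals. Graph clusters named no activated CAF subcluster. Subtype values with under 50 UMIs, and shares in small gates, are limited by depth.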
